A study of Mus musculus with 11 samples.

Results

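*Tiam1* encodes a guanine nucleotide exchange factor that switches on the small GTPase Rac1, which drives actin polymerisation. In excitatory neurons, Tiam1 couples NMDA receptors, EphB receptors and CaMKII to the growth and remodelling of dendritic spines. Its catalytic DH and PH domains lie in the C-terminal part of the protein, and many alternative transcripts are annotated for the gene. The transcripts described here are 4 rows of the count table, of 63244 transcripts in all, called here by the UCSC identifiers that head those rows. They are uc007zvx.1 (ENSMUST00000134021.1 in Ensembl), uc007zvw.2 (ENSMUST00000089084.11), uc007zvy.1 (ENSMUST00000114124.8) and uc007zvt.2 (ENSMUST00000151655.7).

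uc007zvx.1 was chosen by its fall after sleep deprivation in these same libraries. The other 3 were selected on mean abundance alone, as the single row with the mean log2 CPM (library-scaled count) that the study lists for that transcript. Exactly 1 row matched each transcript, and the next nearest row differed by at least 3.74e-05 on the log2 scale. The fall of uc007zvx.1 is therefore given as a description with no p-value, whereas the comparison of SD with NSD was not used to name the other 3. GENCODE vM21 lists 15 *Tiam1* transcripts, and the other rows of this gene were not identified here, so values are for these 4 transcripts and not for the whole gene.

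The libraries hold RNA purified with HA-tagged Rpl22, a ribosomal protein, from the hippocampus of male CaMKII-Cre:Ribotag mice aged 2 to 3 months. The Cre driver limits the tag to cells that use the CaMKIIα promoter, mostly excitatory neurons. Mice were sleep deprived by gentle handling for 5 h from the start of the light phase (SD, 6 libraries) or were not sleep deprived and were collected at the same time of day (NSD, 5 libraries), and 2 mice were pooled per library. Libraries are named by the number or letter in their labels, and since nothing says how the pools were spread over days, p-values measure the spread between these libraries.

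*Tiam1* lies on the minus strand of chromosome 16 from 89787111 to 90143769 (mm10), over 356.7 kb. The positions below are those of GENCODE vM21 for the Ensembl transcripts given above. The UCSC models on which the reads were counted were not at hand, so their ends may differ. uc007zvx.1 (89791685 to 89799990, 1770 bases, 5 exons) covers only the 3′ end of the gene, and its annotation is open at the 5′ end. Its first 453 coding bases are shared with the full-length coding transcript, where they fall in residues 1285 to 1435 of 1591. Thereafter it does not splice. It reads on into the 3410-base intron that uc007zvw.2 and uc007zvy.1 remove (89789592 to 89793001), with 50 more coding bases, a TAG stop codon and a long 3′ untranslated end. This extension, 1317 bases from 89791685 to 89793001, is 74.4% of uc007zvx.1 and belongs to no other annotated *Tiam1* transcript. A read within it is thus, by this annotation, a read of uc007zvx.1 alone. Unspliced *Tiam1* RNA has the same bases, and its part in the counts was not tested.

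uc007zvw.2 (89787858 to 89837875, 3495 bases, 15 exons, annotated as a retained intron transcript without a coding sequence) uses the same exon but splices it to the last exon of the gene. uc007zvy.1 (89787111 to 90143769, 5203 bases, 12 exons) starts at the far 5′ end, and its 2700 coding bases skip from an exon at 89860272 to an exon ending at 89793159, leaving out the exons between. uc007zvt.2 (89898310 to 89974699, 726 bases, 4 exons, annotated as a processed transcript) is a short RNA of the 5′ part with no coding sequence. Among the GENCODE transcripts uc007zvw.2 has 30 bases of its own, uc007zvy.1 has 137 and uc007zvt.2 has none, so the stretches on which these 3 were counted cannot be given.

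**Figure D1:**
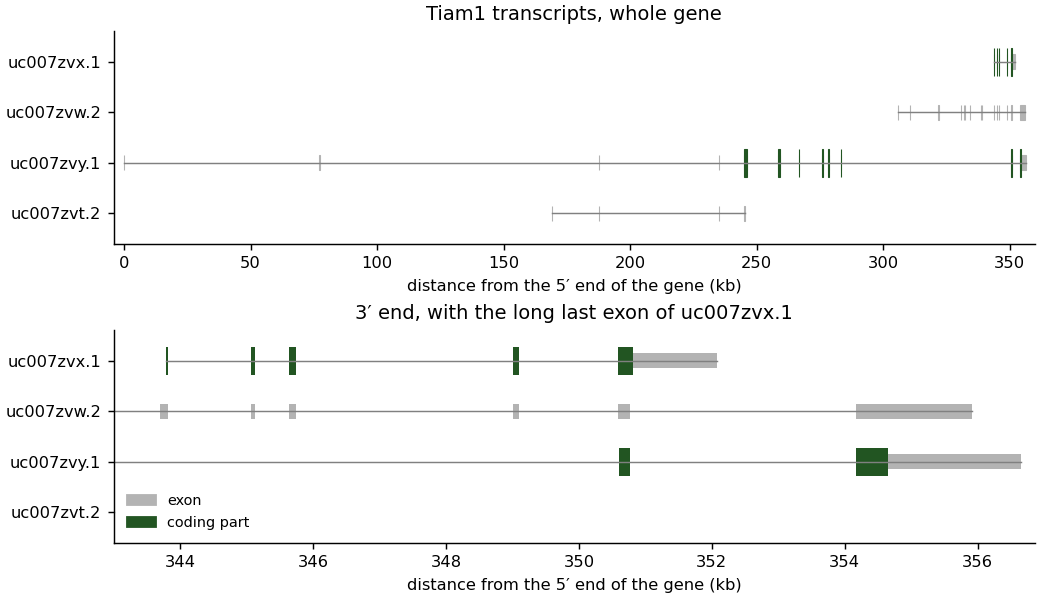
Exons (grey) and coding parts (green) of the 4 transcripts in GENCODE vM21, against distance from the 5′ end of the gene in kb, with the whole gene above and its 3′ end below. The last exon of uc007zvx.1 runs on where uc007zvw.2 and uc007zvy.1 splice, and uc007zvt.2 does not reach the 3′ end.

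The sequences at these junctions show what sets the transcripts apart. For each, the last 50 bases before the point where it diverges are in lower case and the next 50 are in capitals, 5′ to 3′ on the minus strand (GENCODE vM21, GRCm38). All of these bases are coding in at least 1 *Tiam1* transcript. uc007zvx.1 runs from chr16:89793002-89793051 straight into chr16:89792952-89793001, uc007zvw.2 joins the same bases to chr16:89789542-89789591, and uc007zvy.1 joins chr16:89860272-89860321 to chr16:89793110-89793159.
uc007zvx.1: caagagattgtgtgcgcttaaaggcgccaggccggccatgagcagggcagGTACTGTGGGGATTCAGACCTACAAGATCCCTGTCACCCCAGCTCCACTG
uc007zvw.2: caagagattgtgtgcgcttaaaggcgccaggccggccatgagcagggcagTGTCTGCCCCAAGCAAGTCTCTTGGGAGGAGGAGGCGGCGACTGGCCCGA
uc007zvy.1: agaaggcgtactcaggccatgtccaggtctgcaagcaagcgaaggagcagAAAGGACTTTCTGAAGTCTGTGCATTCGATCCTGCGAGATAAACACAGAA
The lower-case parts of uc007zvx.1 and uc007zvw.2 are identical and the capitals differ. The extension of uc007zvx.1 opens with GT, the letters with which introns usually begin. The polyadenylation signal AATAAA was not in the last 50 bases of uc007zvx.1, uc007zvw.2 or uc007zvt.2 but was in those of uc007zvy.1, and 26.6% of the 141672 GENCODE transcripts of at least that length hold it there.

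Each library had 22074914 to 29549339 reads assigned to transcripts. In the values that follow, ± gives the standard deviation between libraries (n = 5 for NSD, n = 6 for SD). Reads that overlapped several transcripts, 37.25% to 51.95% of all reads, were set aside as ambiguous. Reads that lie wholly in exons shared between *Tiam1* transcripts are therefore not in these counts. Counts per library ranged from 94 to 253 for uc007zvx.1, from 123 to 175 for uc007zvw.2, from 33 to 58 for uc007zvy.1 and from 8 to 20 for uc007zvt.2. Abundance is given as CPM, counts scaled to library size with upper-quartile factors. Because the length of the counted stretch is not known for each transcript, CPM of different transcripts are not compared as levels. NSD replicate 2 stood apart, with 22.82% of its reads on transcripts, against 27.89% to 31.94% in the others.

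After sleep deprivation, ribosome-associated uc007zvx.1 was lower in every SD library than in any NSD library. In NSD it had 9.52 CPM in replicate 2, 8.51 in replicate 3, 7.95 in replicate 4, 9.51 in replicate 5 and 10.5 CPM in replicate B. The SD libraries ranged from 3.78 CPM in replicate 4 through a median of 5.47 to 6.02 CPM in replicate 3. The groups did not overlap, and the other 5 SD libraries lay within 5.34 to 6.02 CPM. The mean was 9.21 ± 1.0 CPM over the NSD libraries against 5.28 ± 0.774 CPM over the SD libraries, and the log2 fold change was -0.80 with a standard error of 0.132. Without SD replicate 4 the log2 fold change was -0.72, and over all 11 omissions of a single library it lay between -0.85 and -0.72. The groups did not overlap in CPM for 0.821% of the 29599 transcripts tested. In these bulk samples, fewer tagged cells that contain the transcript and less of it per cell cannot be told apart.

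**Figure D2:**
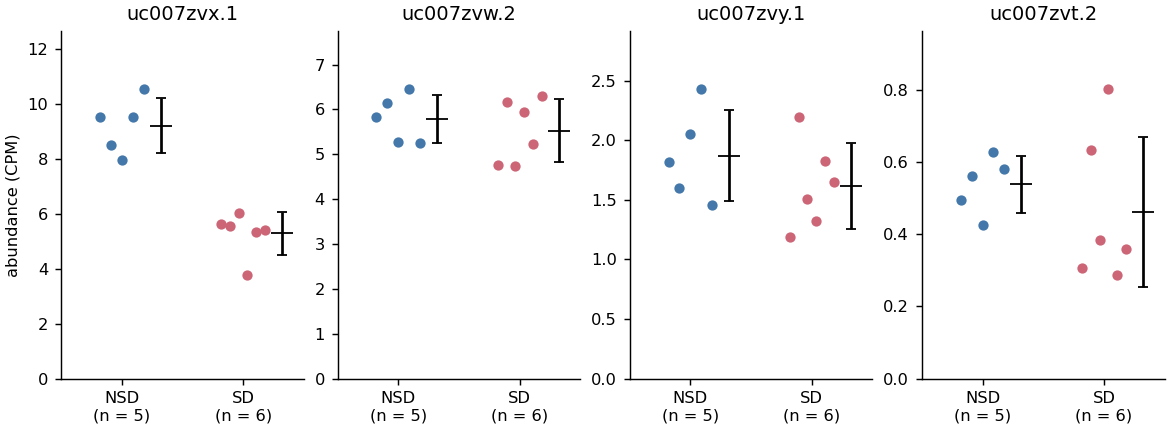
Abundance in CPM of each transcript in each library (points), by group, with the group mean and standard deviation beside them (black); each panel has its own axis from 0. The SD libraries sit below all NSD libraries for uc007zvx.1, from 3.78 to 6.02 against 7.95 to 10.5 CPM, whereas the groups overlap for the other 3.

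The other 3 transcripts differed between the groups by less than their spread between libraries. For uc007zvw.2, the transcript that splices where uc007zvx.1 reads on, the NSD libraries had 5.84 CPM in replicate 2, 6.14 in replicate 3, 5.28 in replicate 4, 6.45 in replicate 5 and 5.25 in replicate B. In SD it ranged from 4.75 CPM in replicate 3 through a median of 5.59 to 6.29 CPM in replicate D. The ranges overlapped over most of their width, and the lowest 3 libraries were SD libraries. The means were 5.79 ± 0.529 CPM and 5.52 ± 0.702 CPM, for a log2 fold change of -0.07 with a 95% interval from -0.34 to 0.21 (edgeR's quasi-likelihood FDR = 0.9999, two-sided exact permutation p = 0.483). With 1 library omitted it lay between -0.11 (without SD replicate D) and -0.03 (without NSD replicate 5).

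uc007zvy.1, the transcript from the far 5′ start, had 1.82, 1.60, 2.06, 2.43 and 1.46 CPM in NSD replicates 2, 3, 4, 5 and B. Its SD values ranged from 1.19 CPM in replicate 1 through a median of 1.58 to 2.20 CPM in replicate 2, and 4 of the 6 lay inside the NSD range. The log2 fold change was -0.22, with a 95% interval from -0.65 to 0.22 (edgeR's FDR = 0.9999, exact permutation p = 0.286), and omitting 1 library gave -0.32 (without SD replicate 2) to -0.10 (without NSD replicate 5). The short 5′ RNA uc007zvt.2 had 0.497, 0.562, 0.427, 0.628 and 0.583 CPM in the NSD replicates in the same order. In SD it ranged from 0.287 CPM in replicate 6 through 0.373 to 0.803 CPM in replicate 4, so the SD libraries lay on both sides of all NSD libraries. Its log2 fold change of -0.23 had a 95% interval from -0.91 to 0.44 (edgeR's FDR = 0.9999, exact permutation p = 0.448), and the value ran from -0.46 without SD replicate 4 to -0.13 without SD replicate 6.

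Thus 0 of the 3 other transcripts passed FDR 0.05 in edgeR's quasi-likelihood test, against 15 of the 29599 transcripts tested (0.0507%), and 0 of the 3 had an unadjusted p below 0.05, as 4.45% of all transcripts did. DESeq2 also called 0 of them, with no adjusted p for uc007zvt.2. With the 3 rows summed, the counts were 172 to 231 per library and the abundance 8.21 ± 0.830 CPM over the NSD libraries against 7.60 ± 1.04 CPM over the SD libraries. The log2 fold change of the sum was -0.11, with a 95% interval from -0.37 to 0.15 (edgeR's FDR = 0.9999, exact permutation p = 0.316). Leaving out 1 library moved it to -0.05 (without NSD replicate 5) at one end and -0.16 (without SD replicate 2) at the other. The difference between uc007zvx.1 and the others was not tested, because it contains the fall by which uc007zvx.1 was chosen.

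**Figure D3:**
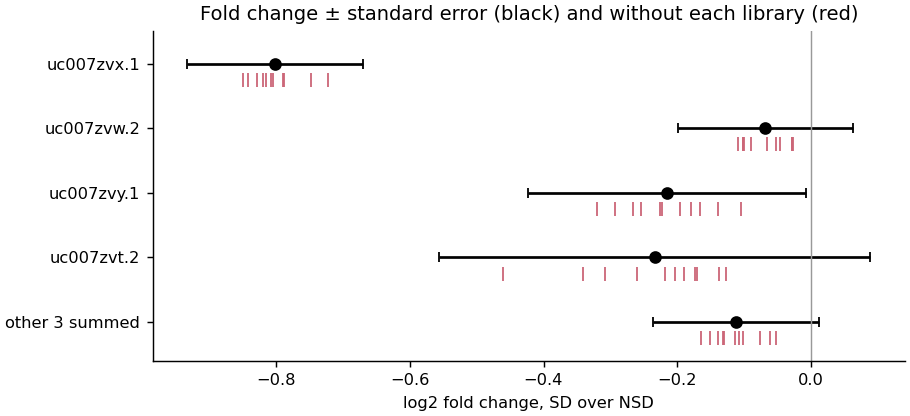
Log2 fold change of SD over NSD for each transcript and for the sum of the other 3, with its standard error (black) and the values after leaving out each library in turn (red ticks). uc007zvx.1 stays between -0.85 and -0.72, and the sum of the others between -0.16 and -0.05.

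The scatter between libraries was set beside the scatter of counting alone. From the mean count over all 11 libraries, a coefficient of variation of 7.5% would be expected for uc007zvx.1. Within the groups, 10.9% was found in NSD and 14.7% in SD. Because its counts were higher in NSD, counting alone would give less than 7.5% in NSD and more in SD. For uc007zvw.2 the values were 8.35% expected, 9.14% in NSD and 12.7% in SD, and for uc007zvy.1 they were 15.1%, 20.6% and 22.6%. For uc007zvt.2, 28.3% was expected from counting, with 14.6% in NSD and 45.1% in SD.

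Within a library, the share of uc007zvx.1 in the counts of the 4 transcripts does not depend on how libraries are scaled. It was 53.9% in NSD replicate 2, 50.6% in replicates 3 and 4, 50% in replicate 5 and 59.1% in replicate B. In SD the lowest share was 31.9% in replicate 4 (95% Wilson interval 26.8% to 37.4%), the median 40.7% and the highest 47.6% in replicate 3 (42.2% to 53.0%). Again no SD library reached the NSD range, but counting intervals overlapped between the groups. Those of SD replicates 1 and 3 overlapped those of NSD replicates 2, 3, 4 and 5, and that of SD replicate 6 those of NSD replicates 3, 4 and 5. These intervals cover counting error only. The mean share was 52.9% ± 3.82 over the NSD libraries against 41.0% ± 5.97 over the SD libraries, a difference of -11.8 percentage points, given as a description because it contains the fall of uc007zvx.1.

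**Figure D4:**
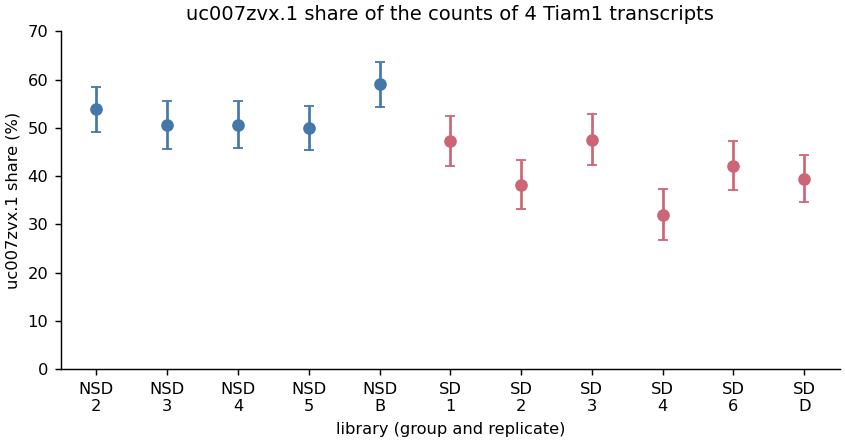
Share of uc007zvx.1 in the counts of the 4 transcripts, in percent, for each library, with 95% Wilson intervals for counting error. NSD libraries (blue) lie between 50% and 59.1% and SD libraries (red) between 31.9% and 47.6%.

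The share of uc007zvw.2 in the 4 transcripts was 33.3% ± 2.54 over the NSD libraries against 42.9% ± 4.51 over the SD libraries, with uc007zvx.1 in the denominator. Among the other 3 transcripts alone, uc007zvw.2 made up 67.8% to 74.0% of the counts in NSD, with a median of 71.6%, and 68.5% to 76.1% in SD, with a median of 72.6%. This share, which does not contain uc007zvx.1, differed by 2.12 percentage points, less than its spread between libraries (exact permutation test, p = 0.245).

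The transcripts were also set beside each other from library to library. With the group means subtracted, the log2 CPM of uc007zvx.1 had correlations over the 11 libraries of -0.32 with uc007zvw.2, 0.09 with uc007zvy.1 and -0.46 with uc007zvt.2, values that share library scaling and depth.

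Because the extension of uc007zvx.1 lies in an intron, its level was set beside the share of reads outside annotated transcripts, which includes reads from introns. The NSD libraries spanned 10.9% to 27.6% (median 14.5%) and the SD libraries 9.97% to 21.1% (median 12.7%; exact permutation p = 0.530). NSD replicate 2 had the highest share, and SD replicate 4, lowest in uc007zvx.1, had the lowest. Within the SD libraries the share and the log2 CPM of uc007zvx.1 had a correlation of 0.57 (n = 6), and within the NSD libraries 0.08 (n = 5). The other 3 had correlations of the opposite sign in the SD libraries, -0.71 for uc007zvw.2, -0.59 for uc007zvy.1 and -0.60 for uc007zvt.2, and of -0.29, -0.06 and -0.56 in the NSD libraries. The part of these reads in the fall of uc007zvx.1 was not tested. With this share as a covariate, added after the data were seen, the log2 fold change of uc007zvx.1 was -0.78.

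**Figure D5:**
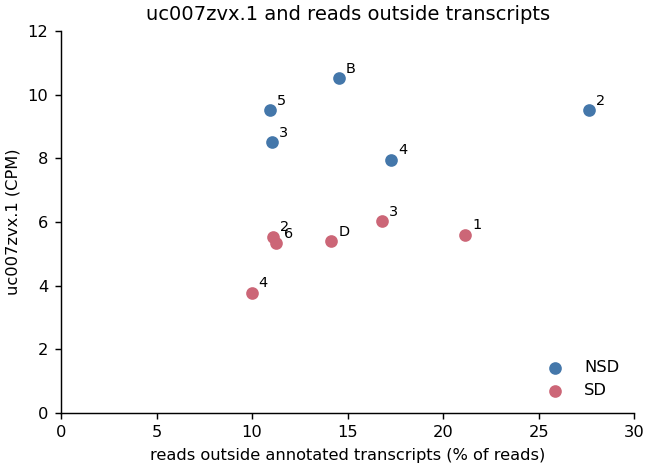
uc007zvx.1 in CPM against the percentage of reads outside annotated transcripts, for each library, labelled by replicate. NSD libraries (blue) lie between 7.95 and 10.5 CPM and SD libraries (red) between 3.78 and 6.02 CPM. The groups do not overlap in CPM, and the transcript was chosen by its fall in these libraries.

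The purified RNA was checked against markers as far as rows carry names. Rows were named from the statistics that the study lists for them, mostly those with the smallest p, so named rows are enriched for transcripts that moved. *Neurod2*, a transcription factor of excitatory neurons, had 336 ± 37.7 CPM over the NSD libraries against 385 ± 63.1 CPM over the SD libraries, a log2 fold change of 0.20. The other excitatory marker with a named row, *Camk2a*, went the opposite way, with a log2 fold change of -0.41. This low-count row had 2.51 ± 0.167 CPM in NSD and 1.89 ± 0.34 CPM in SD. It was lower at an unadjusted p below 0.05, and neither marker passed FDR 0.05 in edgeR's test. Of the 12 inhibitory neuron markers, 4 had a named row, with 6 rows of *Gad2*, *Slc32a1*, *Dlx2* and *Dlx6*. Their summed level was 23.2 to 104 CPM in NSD and 15.6 to 48.5 CPM in SD, 6 of 6 rows were lower on average in SD, and 0 passed FDR 0.05 in edgeR's test, while 5 had an unadjusted p below 0.05, as did 4.45% of all transcripts tested and 38.7% of the 2257 named rows. The 3 septal markers *Zic1*, *Zic2* and *Zic5* summed to 5.17 to 29.5 CPM in NSD and 2.83 to 11.4 CPM in SD. Their log2 fold changes were -1.88, -1.62 and -1.58, 3 of 3 were lower at an unadjusted p below 0.05 and 0 passed FDR 0.05 in edgeR's test. The only named oligodendrocyte marker, *Mbp*, had 167 to 195 CPM in NSD and 178 to 230 CPM in SD, a log2 fold change of 0.21, and was higher at an unadjusted p below 0.05 but did not pass FDR 0.05 in edgeR's test. Over the 11 libraries, the log2 CPM of uc007zvx.1 had correlations of 0.66 with the inhibitory sum, 0.64 with the septal sum, -0.55 with the excitatory sum and -0.69 with the oligodendrocyte marker, all of which contain the difference between the groups. With group means subtracted these were 0.07, 0.01, -0.42 and -0.24. The excitatory sum was almost all *Neurod2*, so its correlations say little about *Camk2a*. With the inhibitory sum as a covariate, added after the data were seen, the log2 fold change of uc007zvx.1 was -0.78. That sum itself differed between the groups, with a mean of 61.5 CPM in NSD and 23.4 CPM in SD. The part of the marker lists, the inhibitory list included, in the fall of uc007zvx.1 was not tested. No marker of astrocytes, precursors, microglia, endothelium or choroid plexus had a named row.

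Other genes of the Rac pathway were examined from lists of exchange factors, GTPases, effectors, GTPase-activating proteins and Tiam1 partners. In each list most genes had no named row, and 0 of the named rows passed FDR 0.05 in edgeR's test. Counts at an unadjusted p below 0.05 follow, to be read against the named rows as a whole. Of those 2257 rows, 557 were higher and 316 lower at that threshold, 38.7% in either direction. The median log2 fold change of the named rows was 0.14, against 0.01 over all transcripts tested.

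Of 39 other exchange factors, 9 were named, with 10 rows, of which 1 was higher and 1 lower at an unadjusted p below 0.05, and the median log2 fold change was -0.16. The higher row was that of *Arhgef4*, with a log2 fold change of 0.21. The 2 rows of *Kalrn*, a Rac exchange factor of dendritic spines, had log2 fold changes of -0.26 and 0.14. *Dock3*, a Rac exchange factor of neurons, had -0.11.

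Among 43 effectors 7 were named, with 7 rows, 1 of them higher and 0 lower at an unadjusted p below 0.05, and a median log2 fold change of -0.09. That higher row was the kinase *Pak4*, with 18.3 ± 1.23 CPM over the NSD libraries against 21.9 ± 3.96 CPM over the SD libraries. *Pak3* and *Pak6*, kinases of the same family, had log2 fold changes of -0.42 and -0.19, and *Wasf1*, which links Rac to actin nucleation, -0.14. Of 21 GTPases and their inhibitors only *Rhog* and *Rhou* were named, with log2 fold changes of -0.38 and -0.12.

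Of 27 GTPase-activating proteins 4 were named, with 5 rows, 1 higher and 2 lower at an unadjusted p below 0.05, and a median log2 fold change of -0.32. *Chn2*, a Rac-inactivating chimaerin, had 7.81 ± 1.16 CPM over the NSD libraries against 5.87 ± 0.759 CPM over the SD libraries, a log2 fold change of -0.41 (FDR = 0.692). *Arhgap32* had -0.32, and the 2 rows of *Arhgap23* had 0.25 and 0.13.

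Of 40 genes for Tiam1 partners and the receptors and kinases upstream of it, 8 were named, with 9 rows, 1 higher and 4 lower at an unadjusted p below 0.05, and a median log2 fold change of -0.33. The row of *Camk2a*, the kinase that phosphorylates Tiam1 in spines, had 2.51 ± 0.167 CPM over the NSD libraries against 1.89 ± 0.34 CPM over the SD libraries, and the groups did not overlap (log2 fold change -0.41). This is 1 low-count row and not the level of the gene. The rows of *Unc13a*, with log2 fold changes of -0.24 and -0.33, were among the 4 lower ones. *Ephb1*, an ephrin receptor, had a log2 fold change of -0.53, *Bdnf* -0.25, the scaffold gene *Shank1* -0.19 and the kinase gene *Src* 0.23.

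Among the 1902 named rows with at least 1 CPM, those most like uc007zvx.1 from library to library were listed without a test. With group means subtracted, the highest correlations of log2 CPM over the 11 libraries were those of *Cyr61* (0.85), *D14Abb1e* (0.78), *Slc45a1* (0.77), *Gsn* (0.77) and *Actn2* (0.75), and the lowest was that of *Ring1* (-0.80). *Cyr61* and *D14Abb1e* had log2 fold changes of 0.66 and 0.55, opposite in sign to that of uc007zvx.1. Without that subtraction they were *Fnbp4* (0.89), *Col22a1* (0.89), *Slc45a1* (0.88), *Cnot1* (0.88) and *Iqsec3* (0.87), and the lowest was *Pid1* (-0.91). These last values contain the difference between the groups, by which uc007zvx.1 was chosen and for which the named rows are enriched. *Slc45a1* was in both lists.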

How the data were processed

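Ribosome-associated RNA was sequenced in 11 libraries (5 NSD, 6 SD). The authors trimmed reads with Trimmomatic 0.36, aligned them to mm10 with STAR 2.7.5, counted them per UCSC transcript with HTSeq-count (intersection-nonempty, reads on several transcripts not counted) and deposited raw counts without normalization. The strand setting and annotation version are not given in the sources used here.

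Rows were named as follows: an edgeR fit with the 5 tallies kept (filterByExpr, TMM, likelihood ratio test, 19141 rows) gave the mean log2 CPM used for the *Tiam1* transcripts, and fold change, mean log2 CPM and likelihood ratio for other genes. Of the listed transcripts, 1998 of 1998, 127 of 128 and, by fold change alone, 275 of 279 had 1 match.

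For the comparison, tallies were left out, a transcript was kept when 5 or more libraries had a count for it, and SD was compared with NSD with edgeR 4.0.16 (upper-quartile factors, two-sided quasi-likelihood test, Benjamini-Hochberg adjustment over all 29599 transcripts, FDR 0.05). Log2 CPM used a prior count of 2. Permutation tests used all 462 assignments of the libraries, with a smallest p of 0.00216. The alternatives were TMM, DESeq2 1.42.0, other filters, covariates, a replicate block and omission of each library. The fit was tested on simulated data. R 4.3.3 and matplotlib 3.10.9 were used. The members and lists were chosen with earlier results of these data known. Genes named in the text are the 4 transcripts, examples from the named rows of the lists, and the 5 rows most like uc007zvx.1 and the 1 least like it, with and without the group means subtracted. Positions are from GENCODE vM21 (GRCm38). Microarray and qPCR data were not used here. Some named rows of the lists are counted but not reported here by name.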

Additional observations from a re-analysis of the deposited data

Results flagged for a closer look

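Of 28 sets of values examined (each measure in each group), 4 held a library far from the rest of its group, where chance flags about 1 in 20 sets. uc007zvx.1 in SD replicate 4 was 3.78 CPM, and the nearest SD library had 5.34 CPM. The other 3 were all in NSD replicate 2, where 22.82% of the reads were on transcripts, 37.25% were ambiguous and 12.3% did not align to 1 place, against nearest values of 29.24%, 47.56% and 6.09%. These 3 are shares of the same reads and so are not independent flags. Without NSD replicate 2 the log2 fold change of uc007zvx.1 was -0.79.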

How the results depend on the processing

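The log2 fold change of uc007zvx.1 lay between -0.85 and -0.72 in 21 of 21 settings, and its share fell by 9.97 to 13.1 percentage points in 14 of 14. uc007zvw.2, uc007zvy.1 and their sum with uc007zvt.2 stayed negative and above FDR 0.05 in 21 of 21 settings each. The fold change of uc007zvt.2 turned to 0.26 with the replicate block over the 6 libraries with shared numbers and to 0.29 over the same libraries without it, and it could not be fitted with at least 10 counts in every library. Deviations from the group means correlated at -0.59, -0.64 and -0.71 between libraries of the same number. Between libraries of different number the correlations ran from -0.69 to 0.71. With so few libraries, these values cannot show whether libraries of the same number were handled together. The block moved none of the 3 tested *Tiam1* transcripts past FDR 0.05.

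The number of transcripts past FDR 0.05, 15 here, was 62 with TMM, 133 with DESeq2, 191 with filterByExpr, 33 with 1 count in any library, 311 with 10 counts in every library, 8 with the label series as a covariate, 6 with the replicate block, 3 over those libraries without it, and 1 to 69 without 1 library. With covariates chosen after seeing the data it was 167 (reads outside transcripts) and 2 (inhibitory markers). Of these calls, 13 were upregulated and 2 downregulated here, 11 and 22 with 1 count in any library, and 85 and 82 with reads outside transcripts. Low counts limit uc007zvt.2 most.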
